A study of Mus musculus with 22 samples.

Results

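The 10 genes described here belong to the endoplasmic reticulum (ER) folding machinery and were followed in mouse hypothalamus after sleep loss. They are Hspa5, Hsp90b1, Hyou1, Calr, Pdia4, Pdia6, Dnajb11, Dnajb9, Manf and Xbp1, chosen by symbol, and the 10 symbols matched 10 of the 41456 gene IDs in the count table. The 10 genes all passed the filter on low counts. The mice were C57BL/6J. Those labelled PWScrm+/p+ are called control here, and those labelled PWScrm+/p−, which lack the paternal copy of the Snord116 small nucleolar RNA genes, are called mutant. Mice were sampled at ZT0 (zeitgeber time, the start of the light period), at ZT6, or at ZT6 when they had been kept awake for 6 h (sleep deprivation, SD). Polyadenylated RNA was sequenced. The labels give neither sex nor age, and nothing else distinguishes the groups in them. The 17 libraries used comprise 3 control ZT0, 4 control ZT6, 4 control SD, 2 mutant ZT6 and 4 mutant SD libraries, so mutant ZT6 rests on replicates 1 and 4.

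The ER is where secreted and membrane proteins fold. Its chaperones bind unfolded chains, its disulfide isomerases form and reshuffle disulfide bonds, and its lectin chaperones hold sugar-bearing proteins until they are folded. When unfolded proteins build up, the sensors Ire1 (Ern1), Perk (Eif2ak3) and Atf6 start the unfolded protein response, in which spliced Xbp1 and cleaved Atf6 switch on many of these genes. The hypothalamus holds neurosecretory cells with a large secretory load, and ER chaperones have been studied in the brain in connection with prolonged wakefulness.

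The 17 libraries totalled 14609454 to 46965594 counts. Of the 22 deposited libraries, 5 were left out: 4 in which 7 neuronal marker genes summed to 1.60 to 4.97 CPM (each library set to 1000000 counts in all), against 1975 to 3501 in the 17, and 1 that held 7348 counts. Myelin, astrocyte and hypothalamic markers were present in every group of the 17. The numbers in the sample titles fall into 3 runs, called index sets 1, 2 and 3 here, and the labels do not say what these numbers stand for. Set 1 holds control SD replicates 1 and 2, control ZT6 replicate 1 and mutant SD replicate 1. Set 3 holds replicate 4 of control ZT6, control SD, mutant ZT6 and mutant SD, and set 2 holds the rest. Pituitary hormone genes were high in 3 libraries, control ZT6 replicate 1 and mutant SD replicates 1 and 4. At the deleted locus, the 17 IDs with a Snord116 symbol had counts in 8 of 11 control libraries (1 to 1561) and 0 in all 6 mutant libraries. The 3 controls at 0 were control ZT0 replicate 3 and the libraries labelled control ZT6 replicate 4 and control SD replicate 4. In the latter 2, both of set 3, the host transcript Snhg14 was at 231 and 174 CPM, beside 202 and 199 CPM in the mutant libraries of that set. In sets 1 and 2 it was at 393 to 2040 CPM in controls and at 253 to 372 in mutants. Whether the genotype labels of those 2 control libraries are right was not tested. The fitted effects of the 10 genes are therefore also summarised without set 3.

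Because most of the 10 genes tracked one another across libraries, their promoters were searched for the ER stress response element (ERSE), to which NF-Y binds at CCAAT and Atf6 at CCACG. The windows are those of RefSeq (GRCm38.p6), from 250 bases before to 50 bases after the start site, and 8 of the 10 genes had one. Manf and Hyou1 had no entry. The ERSE, searched on both strands as CCAAT and CCACG with 9 bases of any kind (N) between them, stood in the windows of 4 of the 8 genes and in 39 of all 32851 windows (0.119%). Atf6 is already known to switch on many of these genes, so finding its element here was not a test. The counts only describe the promoters. The following stretches of those 4 genes are shown on the gene's strand with the matches in capitals. A match in the reverse orientation reads as CGTGG before ATTGG.
Hspa5, chr2:34771995-34772073, plus strand: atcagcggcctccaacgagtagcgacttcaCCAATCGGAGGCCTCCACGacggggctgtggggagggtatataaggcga
Hsp90b1, chr10:86705503-86705686, minus strand: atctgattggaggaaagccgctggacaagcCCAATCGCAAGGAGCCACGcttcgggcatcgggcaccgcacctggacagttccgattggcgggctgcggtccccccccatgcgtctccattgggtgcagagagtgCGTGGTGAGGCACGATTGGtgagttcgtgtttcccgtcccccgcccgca
Pdia6, chr12:17266461-17266539, plus strand: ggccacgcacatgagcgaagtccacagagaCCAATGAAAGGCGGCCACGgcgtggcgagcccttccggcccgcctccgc
Calr, chr8:84847045-84847123, minus strand: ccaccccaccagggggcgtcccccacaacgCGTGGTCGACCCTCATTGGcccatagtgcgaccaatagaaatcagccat

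The match in Hspa5 lay 65 to 47 bases before the RefSeq start site and that in Pdia6 98 to 80 bases before it. Hsp90b1 held 2 matches, 212 to 194 bases before its start on the gene's strand and 107 to 89 bases before it in reverse. Calr held 1 reverse match, 162 to 144 bases before its start. The GENCODE M21 model of Hspa5 begins upstream of the RefSeq start, so the Hspa5 stretch lies inside that model, and the last bases of the Hsp90b1 stretch do too. Dnajb11 held the related element ERSE-II, searched as ATTGG and CCACG with 1 base between them, as ATTGGCCCACG from 8 to 18 bases after its start. ERSE-II occurred in 12 of the 32851 windows (0.0365%). The unfolded protein response element, searched as TGACG directly followed by TGG and bound by Xbp1, stood in 222 windows (0.676%) and in none of the 8. Pdia4, Dnajb9 and Xbp1 held none of these letters in this window.

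**Figure D1:**
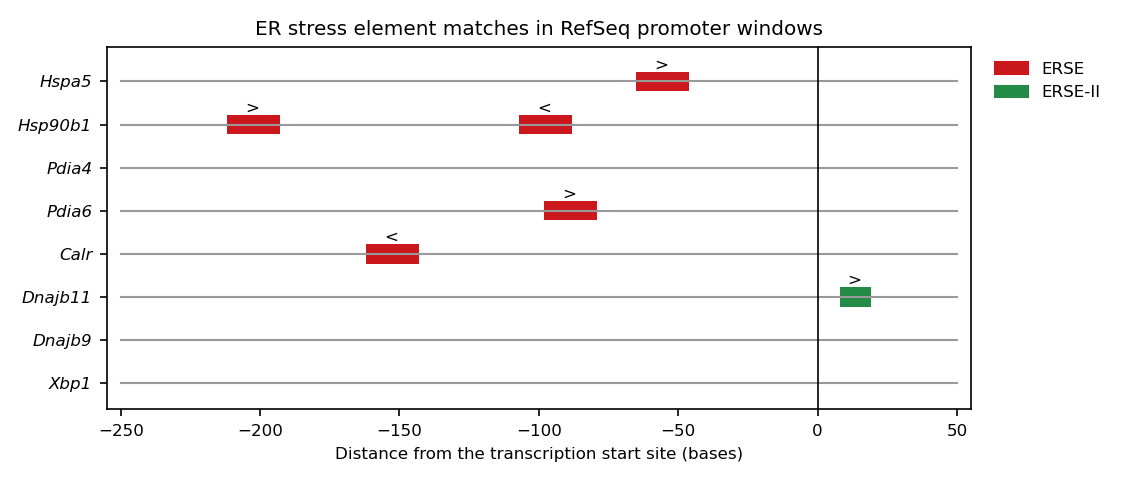
Positions of ERSE (red) and ERSE-II (green) matches in the RefSeq promoter windows of the 8 genes with an entry, in bases from the transcription start site. An arrowhead pointing right marks a match on the gene's strand and one pointing left a match on the opposite strand. Pdia4, Dnajb9 and Xbp1 hold no match.

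Levels below are CPM scaled by TMM factors, which compare one gene between libraries. Per kilobase of merged exons, the control ZT6 means ran from 15.6 CPM for Manf and 16.7 for Dnajb11 to 161 for Calr and 180 for Hsp90b1, with Hspa5 at 114. The other 5 genes lay between 21.3 (Pdia4) and 39.7 (Pdia6). Bulk tissue RNA cannot tell more RNA per cell from more cells that express the gene. Fitted effects of SD were log2 fold changes, each with a standard error (SE), from edgeR's quasi-likelihood F test over 21346 genes with Benjamini-Hochberg adjustment. None of the 10 genes passed an adjusted p under 0.05 in any comparison, so their values are described without being called changes.

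Hspa5 (BiP, ENSMUSG00000026864, chromosome 2, 34771970 to 34777547, plus strand) is the Hsp70 of the ER lumen and holds the 3 stress sensors inactive until unfolded proteins draw it away. Its control ZT6 libraries were at 401, 487, 381 and 666 CPM, and its control SD libraries at 564, 461, 653 and 1193. The mutant ZT6 libraries were at 513 and 605 CPM and the mutant SD libraries at 738, 707, 604 and 872. In controls the ZT6 library of set 3 (666) exceeded the 3 SD libraries of sets 1 and 2, and the ZT6 library at 487 exceeded the SD library at 461. In mutants the SD library at 604 lay just under the higher ZT6 library. Inside each set the SD libraries were above the ZT6 libraries of the same genotype. The difference was 0.35, 0.60 and 0.84 on the log2 scale in control sets 1, 2 and 3 and 0.35 and 0.53 in mutant sets 2 and 3. The fitted control effect was 0.57 ± 0.27 (SE; 1.48-fold, edgeR adjusted p = 0.808, 4 against 4 libraries), and 0.23 without control SD replicate 4. With index set as a covariate it was 0.56 ± 0.17 (unadjusted p = 0.00591, adjusted p = 0.538).

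Hsp90b1 (Grp94, ENSMUSG00000020048, chromosome 10, 86690209 to 86705509, minus strand) is the Hsp90 of the ER and serves a narrower set of client proteins, among them integrins and Toll-like receptors. It stood at 512, 678, 583 and 1132 CPM in control ZT6 and at 666, 556, 928 and 1734 in controls after SD. In mutants it was at 759 and 1131 CPM at ZT6 and at 791, 1007, 859 and 1451 after SD. The 4 libraries of set 3 (1131 to 1734) exceeded every SD and ZT6 library of sets 1 and 2 (512 to 1007), and ZT6 and SD overlapped. Within the sets the SD libraries were again higher in all 5 pairs of genotype and set, by 0.25 to 0.61. The control effect was 0.42 ± 0.34 without and 0.46 ± 0.14 with the covariate (edgeR adjusted p = 1 and 0.538). Without the covariate it was -0.001 when control SD replicate 4 was left out and 0.72 when control ZT6 replicate 4 was.

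Hyou1 (Orp150, ENSMUSG00000032115, chromosome 9, 44379490 to 44392369, plus strand) is a large Hsp70-like protein that exchanges nucleotide on Hspa5. Its control ZT6 libraries were at 208, 136, 150 and 220 CPM and its control SD libraries at 203, 211, 212 and 257. Mutant ZT6 was at 172 and 267 CPM and mutant SD at 266, 197, 213 and 275. Set 1 showed no SD difference (-0.01), and in mutant set 3 it was 0.04, while control set 2 gave 0.57. The fitted control effect was 0.30 ± 0.19 (0.20 without control ZT6 replicate 2), and 0.25 ± 0.12 with the covariate.

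Calr (calreticulin, ENSMUSG00000003814, chromosome 8, 84841850 to 84846934, minus strand) is a calcium-binding lectin chaperone of glycoproteins. Without the covariate its standard error in controls was the largest of the 10. The libraries were at 374, 414, 225 and 840 CPM in control ZT6 and 529, 443, 420 and 1440 in controls after SD. Mutant ZT6 was at 380 and 846 CPM and mutant SD at 581, 490, 427 and 1049. The high value of each group is its library of set 3 (840 to 1440 CPM, against 225 to 581 in the other sets). SD libraries were higher in all 5 pairs, by 0.27 to 0.78. Ignoring the sets gave a control effect of 0.61 ± 0.45 (edgeR adjusted p = 0.984), and the fit with the covariate 0.50 ± 0.18 (adjusted p = 0.538). The first of these values was 0.01 without control SD replicate 4, 1.07 without control ZT6 replicate 4 and 0.40 without control ZT6 replicate 3.

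**Figure D2:**
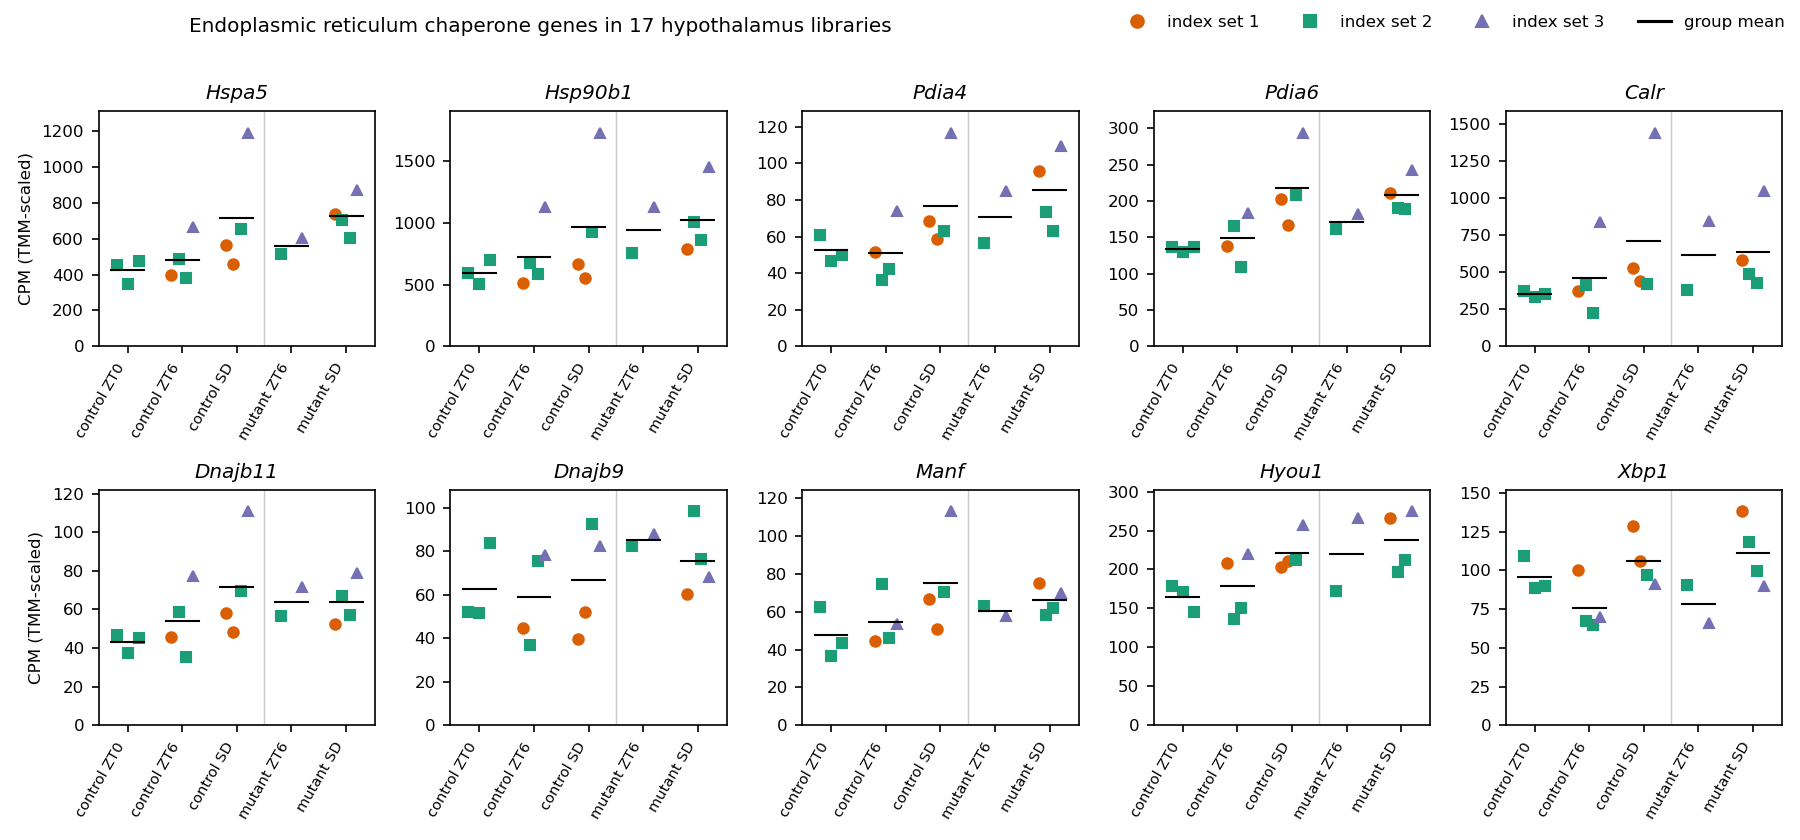
TMM-scaled CPM of the 10 genes in the 17 libraries, by group. Each point is 1 library, shaped and coloured by index set, and the bar is the group mean. Set 3 (triangles) stands highest for Hsp90b1 and Calr in every group it enters, and lowest for Xbp1 in 3 of those 4 groups.

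Pdia6 and Pdia4 are disulfide isomerases. Pdia6 (P5, ENSMUSG00000020571, chromosome 12, 17266545 to 17284770, plus strand) works with Hspa5 and also acts on the sensor Ire1. It was at 138, 165, 109 and 183 CPM in control ZT6 and at 203, 166, 208 and 294 in controls after SD. In mutants it was at 162 and 181 CPM at ZT6 and at 211, 190, 189 and 243 after SD. Every mutant SD library thus exceeded both mutant ZT6 libraries, which was so for no other of the 10 genes and for 4.60% of all genes tested. In controls no member had separate groups, against 0.829% of all genes. The control effect of Pdia6 was 0.55 ± 0.19 (1.47-fold, edgeR unadjusted p = 0.00947, adjusted p = 0.699), and with the covariate 0.55 ± 0.14 (unadjusted p = 0.00112, adjusted p = 0.416). Its 5 within-set differences were 0.41, 0.64, 0.69, 0.23 and 0.42.

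Pdia4 (ERp72, ENSMUSG00000025823, chromosome 6, 47796141 to 47813430, minus strand) is an isomerase of the same family. It stood at 51.3, 36.4, 42.2 and 74.0 CPM in control ZT6 and at 68.3, 58.4, 62.9 and 117 in controls after SD. Mutant ZT6 was at 56.2 and 85.1 CPM and mutant SD at 95.7, 73.5, 63.0 and 109. Here too the ZT6 libraries of set 3 overlapped the SD libraries of the other sets, and within the sets all 5 differences were above 0 (0.28 to 0.68). The control effect was 0.59 ± 0.27 (adjusted p = 0.783; 0.32 without control SD replicate 4) and with the covariate 0.52 ± 0.14 (unadjusted p = 0.00179, adjusted p = 0.471, edgeR).

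The J-domain co-chaperones, which pass clients to Hspa5 and trigger its ATPase, come next. Dnajb11 (ERdj3, ENSMUSG00000004460, chromosome 16, 22857845 to 22879634, plus strand) was at 45.5, 58.5, 35.6 and 77.2 CPM in control ZT6 and at 58.0, 48.5, 69.5 and 111 in controls after SD. In mutants it was at 56.6 and 71.3 CPM at ZT6 and at 52.5, 66.9, 57.1 and 78.9 after SD. SD was higher in the 5 pairs, but by only 0.13 and 0.15 in the mutant ones. Its control effect was 0.40 ± 0.26, at 0.13 without control SD replicate 4, 0.27 without control ZT6 replicate 3 and 0.62 without control ZT6 replicate 4. Its fitted mutant effect was -0.003 ± 0.318, and 0.19 ± 0.19 with the covariate.

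Dnajb9 (ERdj4, ENSMUSG00000014905, chromosome 12, 44205559 to 44210326, minus strand) helps to hold Ire1 inactive and is a known target of spliced Xbp1. Its control ZT6 libraries were at 44.9, 37.0, 75.4 and 78.1 CPM and its control SD libraries at 39.7, 52.2, 92.3 and 82.3. Mutant ZT6 was at 82.3 and 88.1 CPM and mutant SD at 60.1, 98.2, 76.3 and 68.0. The groups overlapped almost fully. The within-set differences were 0.02, 0.80 and 0.08 in controls and 0.07 and -0.37 in mutants. The largest, in control set 2 and mutant set 3, thus went opposite ways. The fitted effects were 0.18 ± 0.29 in controls (-0.03 to 0.36 when each library was left out in turn, lowest without control SD replicate 3) and -0.17 ± 0.35 in mutants.

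Manf (ENSMUSG00000032575, chromosome 9, 106838312 to 106891979, minus strand) encodes a small ER protein that binds Hspa5 and is also secreted. It was at 44.6, 74.8, 46.2 and 53.8 CPM in control ZT6 and at 67.0, 51.0, 70.6 and 113 in controls after SD. The mutant values were 63.1 and 57.9 CPM at ZT6 and 75.1, 58.4, 62.3 and 70.1 after SD. Its largest difference was 1.07 in control set 3, between 1 library and 1 library, and its lowest was -0.07 in mutant set 2. The control effect was 0.46 ± 0.24 with all 3 sets and 0.21 without set 3 (0.22 without control SD replicate 4 alone).

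Xbp1 (ENSMUSG00000020484, chromosome 11, 5520659 to 5525893, plus strand) encodes the transcription factor that Ire1 activates by splicing its mRNA. The gene counts add up spliced and unspliced forms, so they do not measure that activation. Xbp1 was at 100, 67.6, 64.9 and 69.7 CPM in control ZT6 and at 128, 106, 97.2 and 91.4 in controls after SD. Mutant ZT6 was at 90.8 and 66.2 CPM and mutant SD at 138, 119, 99.5 and 89.6. In both genotypes the overlap came from 1 ZT6 library, control replicate 1 (set 1) and mutant replicate 1 (set 2). Between sets Xbp1 went the opposite way from Hsp90b1. Its set medians over the SD and ZT6 libraries were 117, 94.0 and 79.6 CPM in sets 1, 2 and 3, and those of Hsp90b1 were 611, 809 and 1292. Within sets SD was higher in all 5 pairs, by 0.22 to 0.55. The control effect was 0.49 ± 0.19 (1.40-fold, edgeR unadjusted p = 0.0187, adjusted p = 0.719) and the mutant effect 0.51 ± 0.23 (1.42-fold, unadjusted p = 0.0439, adjusted p = 1).

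Counted over the list, the fitted SD effect in controls was above 0 for 10 of 10 genes, beside 47.4% of all genes tested. The median was 0.47 for the 10 and -0.02 for all genes. By edgeR 0 of the 10 were called (0% of all genes, lowest adjusted p 0.699), and by DESeq2 also 0, beside 0.0843% of all genes. At an unadjusted p under 0.05, 4 of the 10 were higher (Hspa5, Pdia4, Pdia6 and Xbp1), beside 1.27% of all genes. With index set as a covariate the median was 0.47, and 8 of the 10, all but Dnajb9 and Manf, were higher at an unadjusted p under 0.05, beside 3.64% of all genes. The lowest adjusted p was then 0.416. Without the covariate the median was 0.22 when the library labelled control SD replicate 4 was left out. With the covariate, leaving out any 1 of the 8 libraries compared gave medians of 0.38 to 0.55.

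In mutants, where 4 SD libraries stood against 2, 8 of 10 effects were above 0, beside 48.3% of all genes. Their median was 0.13 (all genes -0.01). 1 gene, Xbp1, had an unadjusted p under 0.05 on the higher side, beside 1.34% of all genes. With the covariate 9 of 10 effects were above 0, beside 45.5% of all genes, with a median of 0.37. At that p 5 genes were higher (Hspa5, Hsp90b1, Pdia4, Pdia6 and Xbp1), beside 1.57% of all genes, and every adjusted p was 1 by edgeR. Both fits called 0 of the 10 and 0% of all genes, and DESeq2 called 0 of the 10 and 0.0796% of all genes. With the covariate, the 5 genes at that p became 2 when the 3 libraries high in pituitary hormone genes were left out. Leaving out 1 library could lower that count too. Without mutant ZT6 replicate 1 the median without the covariate was -0.05, the remaining ZT6 library being that of set 3, and without mutant ZT6 replicate 4 it was 0.38.

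For the mean of the genotypes, 10 of 10 effects were above 0, beside 46.1% of all genes (median 0.31, all genes -0.02). Of these, 3 had an unadjusted p under 0.05, beside 1.78% of all genes. The covariate fit gave a median of 0.41 and 8 genes beside 2.56%, with unadjusted p from 0.000791 (Pdia6) and adjusted p from 0.381 (Pdia4 and Pdia6). No member was called, while 0.00468% of all genes were without and 0.0187% with the covariate. By DESeq2 0 of the 10 were called, beside 0.173% of all genes.

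**Figure D3:**
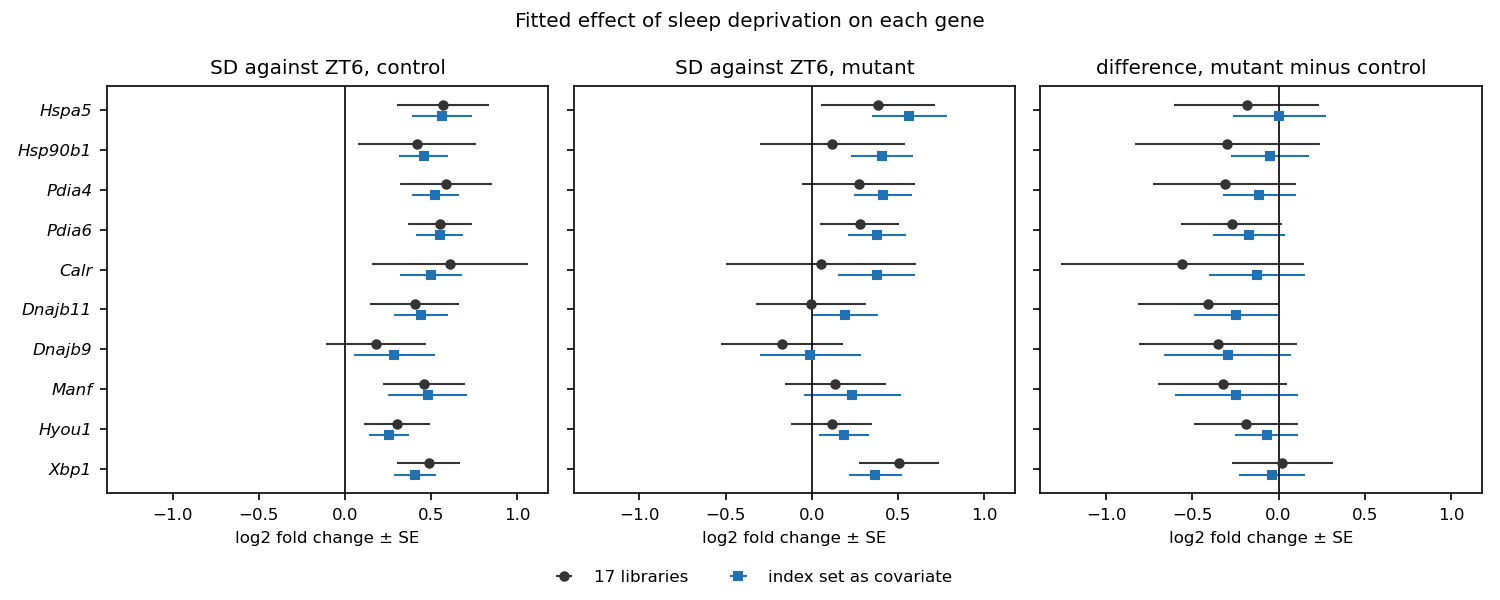
Fitted log2 fold changes ± SE of SD against ZT6 in control (left) and mutant (middle) mice and their difference (right), for the 10 genes, without (circles) and with (squares) index set as a covariate. In controls all 10 lie above 0 in both fits, and the errors of Hsp90b1 and Calr shrink most with the covariate.

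Inside the index sets the genes can be read pair by pair. Each of the 5 pairs of genotype and set held 1 or 2 SD and 1 or 2 ZT6 libraries. Hspa5, Hsp90b1, Pdia4, Pdia6, Calr, Dnajb11 and Xbp1 were higher after SD in 5 of 5 pairs, beside 4.46% of all genes tested. For these 7 genes every SD library also exceeded every ZT6 library of its pair in all 5, beside 1.49% of all genes. Manf, Hyou1 and Dnajb9 were higher in 4 of 5. The median difference of the 10 genes was 0.27, 0.58 and 0.64 in control sets 1, 2 and 3 and 0.26 and 0.34 in mutant sets 2 and 3, while that of all genes lay between -0.06 and 0. No test was made on these pairs, since 2 of them compare 1 library with 1.

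Without set 3 the fitted control effects of the 10 genes ran from 0.21 (Manf) to 0.55 (Pdia4) with a median of 0.39, and the mutant ones from -0.07 (Dnajb9) to 0.46 (Pdia4) with a median of 0.33. For the mean of the genotypes they ran from 0.09 (Dnajb9) to 0.51 (Pdia4) with a median of 0.38. Without set 3 mutant ZT6 is replicate 1 alone, so the mutant values and the mutant part of the mean rest on 1 ZT6 library. Control set 2, control set 3 and mutant set 2 contain none of the 3 pituitary-rich libraries. Leaving those 3 libraries out with the covariate kept gave 0.44 to 0.75 in controls and 0.08 to 0.56 in mutants. Leaving them out without the covariate gave medians of 0.44 in controls, 0.05 in mutants and 0.20 for the mean of the genotypes. The summed pituitary markers ran from 1.23 to 664 CPM in control ZT6, 0.371 to 32.5 in control SD, 0.834 to 17.7 in mutant ZT6, where Fshb and Lhb were at 0, and 0.121 to 20790 in mutant SD. The sum of the 6 myelin markers was higher after SD in 5 of 5 pairs as well, by 0.13 to 0.43. This sum ran from 4788 to 6100 CPM in control ZT6, 5499 to 8058 in control SD, 5793 to 6349 in mutant ZT6 and 2928 to 7929 in mutant SD. No myelin marker was at 0, and the part of oligodendrocyte RNA in the chaperone differences was not tested. The 9 marker lists besides those of pituitary and myelin, of neurons, hypothalamus, astrocytes, microglia, endothelium, choroid plexus, ependyma, meninges with fibroblasts, and blood, went the same way in 1 to 3 of the 5 pairs.

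**Figure D4:**
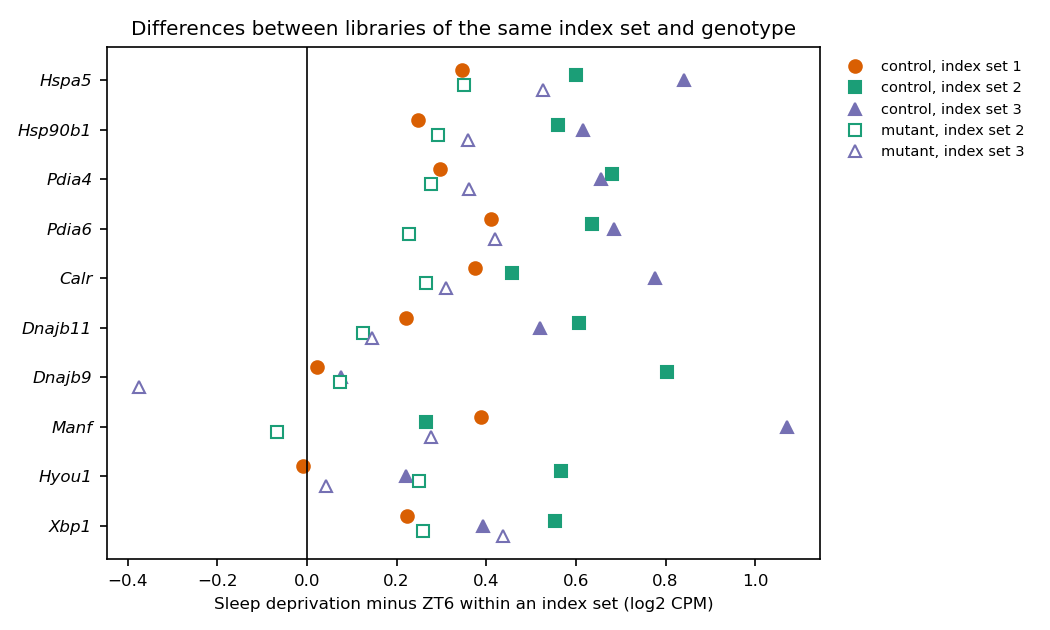
Difference in log2 CPM between SD and ZT6 libraries of the same genotype and index set, for each of the 10 genes. Filled symbols are control and open symbols mutant pairs. For 7 genes all 5 points lie right of 0, and Dnajb9, Manf and Hyou1 have 1 point left of it.

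Whether the genotypes respond differently was asked with the interaction of genotype and SD. It was below 0 (smaller in mutants) for 9 of 10 genes and above 0 for 1, while 52.6% of all genes were above 0. The median of the 10 was -0.31, from -0.56 ± 0.71 (Calr) to 0.02 ± 0.29 (Xbp1). With the covariate the median was -0.12, from -0.30 ± 0.37 (Dnajb9) to 0.005 ± 0.271 (Hspa5). None had an unadjusted p under 0.05 in either fit, beside 0.511% of all genes on the lower side without and 1.70% with the covariate, and every adjusted p was at least 0.982 (edgeR, 0% of all genes called). DESeq2 called 0 of the 10, beside 0.0375% of all genes. The errors are as large as the effects, so a smaller or an equal response in mutants could not be told apart at this number of libraries. Without set 3, where mutant ZT6 is replicate 1 alone, 9 of 10 were below 0, with a median of -0.12. Leaving out 1 library without the covariate gave medians from -0.45 (control ZT6 replicate 4) to -0.05 (control SD replicate 4). After SD, mutant against control differed by -0.18 (Manf) to 0.18 (Dnajb9), with a median of 0.05 and edgeR adjusted p of 0.999 throughout. Of the 10 genes, 6 were higher and 4 lower, beside 47.4% of all genes higher. This balance depended on the libraries used: 10 of 10 were higher in mutants without set 3 (median 0.15), and 2 of 10 without the pituitary-rich libraries (median -0.09). The median was 0.26 without control SD replicate 4 and below 0 without control SD replicate 1 (-0.07), control SD replicate 2 (-0.12) or mutant SD replicate 4 (-0.09). Of the 10, 0 were called in this comparison, beside 0% of all genes by edgeR, 0.0141% with the covariate and 0.00468% by DESeq2. With the covariate Pdia4 was highest in mutants (0.24 ± 0.14, edgeR adjusted p = 0.563).

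Time of day alone could be compared only in controls, since no mutant ZT0 library was among the 17. The ZT0 libraries of Hspa5 were at 454, 347 and 478 CPM, of Pdia6 at 136, 129 and 137, and of Calr at 375, 331 and 352. These lay within the range of the ZT6 libraries, apart from the Hspa5 library at 347. ZT6 exceeded ZT0 for 7 of 10 genes, beside 59.7% of all genes (median 0.16, all genes 0.09), but for 2 of 10 without set 3 (median -0.06). With the covariate it was 6 of 10, beside 53.5% of all genes (median 0.05). Without the covariate, leaving out control ZT6 replicate 4 or control ZT0 replicate 2 gave a median of -0.01 or 0.07. Of the 10 genes, 0 were called by edgeR (0% of all genes) and by DESeq2 (0.108%). None had an unadjusted p under 0.05, beside 2.34% of all genes on the higher and 0.914% on the lower side. All ZT0 libraries belong to set 2. With the covariate Xbp1 (-0.41 ± 0.14, unadjusted p = 0.011, adjusted p = 0.626) and Pdia4 (-0.35 ± 0.15, unadjusted p = 0.0397, adjusted p = 0.649) were lower at ZT6 by edgeR, beside 3.22% of all genes lower at that p. Xbp1 was at 109, 88.6 and 89.7 CPM at ZT0, above the set 2 libraries of ZT6 (67.6 and 64.9) and close to the control SD libraries.

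In 7 further lists, related genes were set beside these, taken as the mean of the genotypes with the covariate. By edgeR 0 genes of these lists were called, beside 0.0187% of all genes. In the same fit 42.9% of all genes were higher after SD, and 2.56% were higher at an unadjusted p under 0.05. Of 18 other ER folding genes, 15 were higher after SD (median 0.12, all genes -0.04) and 6 had an unadjusted p under 0.05 on the higher side. These were Sdf2l1, a partner of Dnajb11 (0.65 ± 0.22), Creld2, an isomerase-like protein (0.54 ± 0.19), Pdia3, the isomerase that works with calreticulin (0.34 ± 0.14), the inhibitor of Perk Dnajc3 (0.33 ± 0.13), the glycoprotein sensor Uggt1 (0.22 ± 0.10) and the thiol protein Erp44 (0.22 ± 0.09). Canx, the membrane-bound counterpart of calreticulin, was at 0.17 ± 0.11 and P4hb, the most studied isomerase, at 0.13 ± 0.13. By genotype in this fit, the list medians were 0.15 in controls and 0.12 in mutants. Uggt1 was at 0.005 ± 0.123 in controls and 0.44 ± 0.15 in mutants.

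ER-associated degradation, which exports misfolded proteins, gave 8 of 10 tested genes higher with a median of 0.08 and none at that p (Herpud1 0.15 ± 0.10). Entry into the ER gave 13 of 16 with a median of 0.11 and 1 at that p, Srprb, a subunit of the signal recognition particle receptor (0.31 ± 0.13). Derl3 of the degradation list and Spcs1 of the entry list had means of only 0.47 and 0.18 CPM, so their directions carry no weight. The stress sensors themselves were 2 higher and 2 lower: Atf6b, a relative of Atf6, was at 0.21 ± 0.12, Eif2ak3 at 0.17 ± 0.12, Ern1 at -0.06 ± 0.16 and Atf6 at -0.06 ± 0.12. By genotype, the sensors' median was -0.02 in controls and 0.19 in mutants, and Ern1 was at -0.34 ± 0.20 and 0.22 ± 0.24. For the mean of the genotypes, the arm of Perk and Atf4 was 7 higher and 8 lower with a median of -0.003. Within it the stress factor Ddit3 (Chop) was at -0.01 ± 0.19, Atf4 at 0.18 ± 0.13, and 1 gene, Ppp1r15b, which helps to reverse the block on translation, had an unadjusted p under 0.05 (0.20 ± 0.08, adjusted p = 0.749).

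The 11 cytosolic heat shock chaperones were all higher (median 0.47), 9 at an unadjusted p under 0.05, with the lowest adjusted p at 0.0866 for Hsph1 (1.06 ± 0.19) and 0.11 for Hspa1b (1.09 ± 0.20). Hspa1a and Hspa1b are near-identical copies, so the counts assigned to each are uncertain. The mitochondrial chaperones had a median of 0.07, with 5 of 6 higher and 1 at that p, Hspd1 (0.31 ± 0.09). Whether one list differs from another was not tested.

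**Figure D5:**
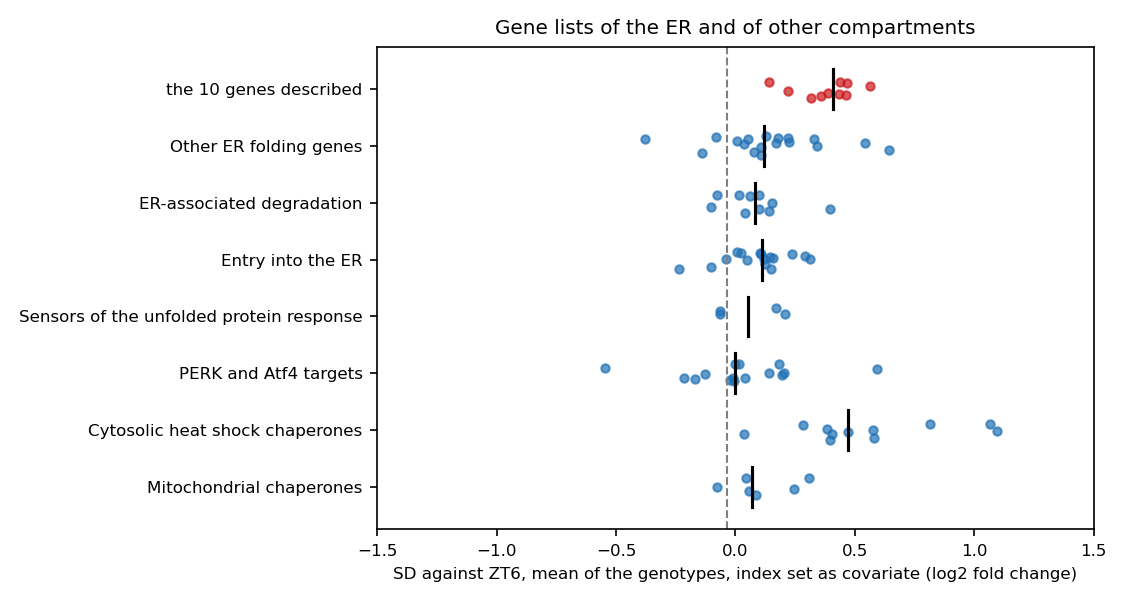
Fitted log2 fold change of SD against ZT6, mean of the genotypes with index set as a covariate, for each gene of 8 lists. Points are genes, bars the list medians, and the dashed line the median of all genes tested (-0.04). The 10 ER genes described (red) and the cytosolic heat shock chaperones lie furthest right, with medians of 0.41 and 0.47.

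Across the 17 libraries, after the mean of each index set was subtracted, the 10 genes tracked each other: 44 of their 45 pairs had a positive Pearson correlation of log2 CPM, with a median of 0.72. These values share the libraries and include the SD difference. Dnajb9 had the lowest median to the other 9, at 0.33. Of 10842 other genes at a mean of at least 10 CPM, those most like Hspa5 were Hsp90b1 (r = 0.974), Pdia6 (0.932), Mageh1 (0.930), Pdia3 (0.922), Gm15344 (0.886), Hsp90aa1 (0.879), Calr (0.879) and Mb21d2 (0.871). Hence 3 of the nearest 8 are among the 10 genes described. The rest followed at rank 9 (Dnajb11), 19 (Manf), 21 (Pdia4), 91 (Xbp1), 440 (Hyou1) and 1400 (Dnajb9, r = 0.402).

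The genes that share the ERSE can be set beside these values. Of the members, the 4 with the element had fitted values of 0.56 (Hspa5), 0.43 (Hsp90b1), 0.46 (Pdia6) and 0.44 (Calr) for the mean of the genotypes with the covariate. Pdia4 and Xbp1, without a match in this window, were at 0.47 and 0.39, and Dnajb9 at 0.14. Outside the 10 genes, 17 tested genes carry the element. Of those, 15 were above 0 in the same fit, beside 42.9% of all genes, with a median of 0.17 beside -0.04. At an unadjusted p under 0.05 by edgeR 3 were higher (Creld2, Dnajc3 and Xlr3b), beside 2.56% of all genes. The 17 include genes already counted in the lists above and Derl3, whose mean was only 0.47 CPM. Creld2, Dnajc3 and Syvn1 were higher in 5 of 5 pairs, beside 4.46% of all genes. The elements stood in genes with higher and with lower fitted values, none of them called, and the factors that bind them were not measured.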

How the data were processed

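Hypothalamic RNA of 22 libraries was deposited by the authors in the form of estimated counts per gene (expected counts), whole numbers that are not normalised. Per the labels' protocols, Trizol RNA went into TruSeq polyA libraries for a NovaSeq, FastQC and Trimmomatic 0.38 served for quality control and trimming, kallisto 0.44.0 estimated transcript abundance from Ensembl release 79, and tximport summed it to genes. The table has 41461 lines. The 5 lines repeating an ID were dropped, and of the remaining 41456 IDs GENCODE M21 (GRCm38), from which gene coordinates were read, holds 41279, and 0 columns of values were left unmapped. Groups come from the labels, and replicates were numbered in accession order, so no test was paired. The labels speak of mice per condition but do not tie each library to a mouse, so p-values measure the spread between libraries. Among 22 replicate pairs, chi-square per degree of freedom was at least 33.97, far above counting error.

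The 17 libraries with neural transcripts were fitted in R 4.3.3 with edgeR 4.0.16: TMM, filterByExpr by group (minimum count 10, minimum total 15), 5 groups in 1 quasi-likelihood fit with 12 residual degrees of freedom (10 with index set as a covariate), two-sided F tests, Benjamini-Hochberg adjustment over 21346 genes and calls at an adjusted p under 0.05. Each SE was derived from the F statistic as the size of the log2 fold change divided by its square root. Log2 CPM used a prior count of 2. The limit that 0 counts leaves (3 counts) corresponds to 0.0639 to 0.205 CPM and covers counting error only. The scripts were tested on simulated data. Alternatives were RLE factors, DESeq2 1.42.0, no filter, all 22 libraries, the index set covariate, leaving out index set 3, the pituitary-rich libraries or each library in turn, only the groups compared, and a 2-fold limit. The covariate was also combined with leaving out the pituitary-rich libraries or each library, both chosen after seeing the data.

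The text names all 10 genes. From the other lists it would name called genes in SD against ZT6 (control), and as none were called, those named were chosen after their values were seen. The 8 genes most like Hspa5 were chosen by correlation. The 10 genes and the lists were chosen with earlier results of these data known. Of the list genes, Vimp and Hm13 were not matched. Promoter windows came from RefSeq.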

Additional observations from a re-analysis of the deposited data

Results flagged for a closer look

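Among 30 sets of values (10 genes in the 3 groups of 4 libraries), 3 held a library that lay far from the other 3, and chance alone flags about 1 in 20 such sets. Calr in the library labelled control SD replicate 4 was at 1440 CPM, and the next highest was 529. Pdia4 in the same library was at 116.8 CPM, and the next was 68.3. This gap was 0.83 of the range of the group, just past the limit of 0.829. Xbp1 in control ZT6 replicate 1 was at 100 CPM, and the next was 69.7. No other library of the same group shares the index set of a flagged library. The rate of 1 in 20 takes no account of index sets or of genes flagged in the same library.

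The 4 deep libraries without neural transcripts, which entered no comparison, held more of 5 of the 10 genes than any of the 17. In CPM without TMM scaling, Calr was at 1558 to 2571 there and at most 1313 in the 17. Pdia4 was at 259.2 to 412.4 against at most 107.2, Pdia6 at 444.5 to 614.4 against 268.1, Manf at 144.2 to 171.9 against 103.2, and Dnajb11 at 118.7 to 135.9 against 101. The markers of meninges and fibroblasts summed to 7779 to 23030 CPM in these 4 and to 86.6 to 355 in the 17, and their part in the higher values was not tested.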

How the results depend on the processing

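No paired analysis was possible because the labels carry no replicate numbers shared between groups. None of the 10 genes was called under any alternative in any comparison. Directions of single genes were compared for SD against ZT6 in control, in mutant and as the mean of the genotypes only. Of 860 such values under the alternatives 813 kept their direction and 47 did not. The values under the 2-fold limit could not reverse, as that limit changes only the calls. The cause of the reversals was not tested. In mutants Dnajb11 (-0.003) became 0.034 with RLE factors and with DESeq2, 0.023 without the filter, 0.191 with the covariate, 0.058 without set 3, 0.021 without the pituitary-rich libraries, 0.027 with only the groups compared and 0.295 with the covariate and without the pituitary-rich libraries. Without those libraries Calr was -0.343, Dnajb9 0.098 (0.164 with the covariate) and Hyou1 -0.028. The fit of all 22 libraries adds the left-out mutant ZT6 replicates 2 and 3 to the mutant ZT6 group. The mutant values were then Hsp90b1 -0.123, Pdia4 -1.166, Pdia6 -0.457, Calr -0.726, Dnajb9 0.075 and Manf -0.805, with a median of -0.29 (interaction -0.796). The mean of the genotypes gave Pdia4 -0.281, Calr -0.051, Dnajb11 -0.13 and Manf -0.16. Leaving out 1 library, with or without the covariate, gave -0.001 to 0.716 for Hsp90b1 and -0.026 to 0.408 for Dnajb9 (highest without the covariate 0.362) in controls. In mutants it gave -0.121 to 0.553 for Hsp90b1, -0.397 to 0.718 for Calr, -0.142 to 0.349 for Dnajb11, -0.323 to 0.168 for Dnajb9 and -0.15 to 0.445 for Hyou1, and -0.097 to 0.237 for Dnajb9 over the genotypes, with 0.095 the highest without the covariate. Without the covariate the highest mutant values were 0.418 for Hsp90b1 and 0.156 for Dnajb11. With it, Dnajb11 was 0.082, 0.173, 0.13, 0.22 and 0.277 when mutant ZT6 replicate 4 or mutant SD replicates 1 to 4 were left out, and Dnajb9 0.031 and 0.036 without mutant ZT6 replicate 4 and mutant SD replicate 3. Counts of called genes over the whole table were 0 in each comparison, or 1 for the mean of the genotypes. In the order SD in control, SD in mutant, mean, interaction, genotype after SD and time, DESeq2 called 18, 17, 37, 8, 1 and 23. With all 22 libraries 173 genes were called for SD in mutants and 0 for the mean. The covariate gave 4 for the mean and 3 for genotype after SD. Leaving out the filter gave 1 for SD in control and 2 for the mean, leaving out set 3 gave 1 and 0, and RLE factors, only the groups compared or a 2-fold limit gave 0 for the mean. Without the pituitary-rich libraries 2 were called for SD in control and 1 for the interaction, and with the covariate as well 4 for SD in control, 3 for the mean and 1 for genotype after SD. Leaving out 1 library gave 0 to 3 called genes without and 0 to 7 with the covariate over the 6 comparisons.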
